A study of Mus musculus with 5 samples.

Results

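The site described here is a stretch of 25 kb on chromosome 5 (mm10, 28,675,001 to 28,700,000) in the gene desert between Shh and Lmbr1. It was made of 5 bins of 5 kb, with the centre bin at 28,685,001 to 28,690,000, and it lay inside the body of the long non-coding RNA gene 9530036O11Rik (28,466,984 to 28,719,209). Its members were all pairs of bins with 1 bin in the site and the other 20 kb or more away, 2754 of the 155,961 bin pairs of the map. Of these, 551 involved the centre bin and 2203 only its 4 neighbours. The site was selected on contact values of these same maps and the labels give no position for any allele, so the values below are a description of 6 maps, without a test. "intraTAD2 site" is only a working name for this stretch.

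Capture Hi-C, which sequences ligated pairs of nearby DNA fragments after enrichment for a chosen region, had been done on limb buds of mouse embryos at stage E10.5. The 5 homozygous mutant genotypes had 1 library each. Per the labels, mating gave the embryos of intraTAD2, of intraTAD3 and of intraTAD2-i4CTCF (i4CTCF below). Tetraploid aggregation, a method that combines embryonic stem cells with tetraploid host embryos, gave those of intraTAD2-2xBorCTCF (2xBorCTCF below) and of intraTAD2-1xBorCTCF (1xBorCTCF below). The names of the last 3 genotypes carry intraTAD2; what each allele changes, and whether limb buds were pooled, is not stated in the sources used here. No sample of the series is tied to the wild-type map, which is given as the authors' value; in every ratio to it, genotype and origin of the library cannot be told apart. The maps held 1,121,373 (2xBorCTCF) to 2,942,790 (intraTAD2) contacts, of which the site's pairs held 30,415 for wild type, 67,401 for intraTAD2, 50,483 for intraTAD3, 20,985 for i4CTCF, 21,451 for 2xBorCTCF and 44,008 for 1xBorCTCF.

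Shh encodes a secreted signal that patterns the limb bud along its thumb-to-little-finger axis. Its limb enhancer, the ZRS, lies far away in an intron of Lmbr1, and both genes lie in a topologically associating domain (TAD), a stretch of chromosome that contacts itself more than its surroundings. Domain borders are commonly bound by CTCF, a zinc finger protein at which the loop-extruding cohesin complex pauses, and pairs of CTCF sites in convergent orientation are often found at the feet of loops. By its title, the series asks what genomic context does to enhancers placed at different points around Shh.

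The borders of the domain were sought in wild type only from the start of Rbm33 to the end of Shh and within Lmbr1. Each was the bin of that range with the lowest mean contact across it within 100 kb, set relative to distance. They lay at 28,435,001 between Rbm33 and Shh and at 29,355,001 inside Lmbr1, where the second had to fall by the range searched. The site therefore stood inside the domain, 208 kb from Shh (28,456,840 to 28,467,101) and 530 kb from Lmbr1 (29,229,802 to 29,378,421). A list of 13 genes served as partners, each taken as the gene and 1 bin on either side. RefSeq promoter entries (GRCm38.p6) were matched for 11 of the 13. As examples of DNA from partner genes, the bases before the annotated start and outside the gene are printed for 3 partners, 5′ to 3′ on the strand of the gene. Lmbr1 holds the 25 kb window with the highest contact to the site in every map, but its printed bases lie outside that window and past the border bin. The window that holds them, 700 kb from the centre bin, had contacts of 0.846 for wild type to 1.21 for intraTAD2, where 1 is the average. Insig1 and Mnx1 are distal partners with higher values in 2xBorCTCF and 1xBorCTCF than in wild type, as Mnx1 also had in intraTAD2. Limits of these ratios are given below. Capitals mark CCCTC, the short word that gave CTCF its name, on either strand.
Lmbr1, chr5:29378422-29378640, minus strand: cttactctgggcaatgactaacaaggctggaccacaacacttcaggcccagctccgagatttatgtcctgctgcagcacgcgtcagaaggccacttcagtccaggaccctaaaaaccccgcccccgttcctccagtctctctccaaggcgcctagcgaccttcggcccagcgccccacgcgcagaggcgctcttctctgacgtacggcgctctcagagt
Insig1, chr5:28071162-28071411, plus strand: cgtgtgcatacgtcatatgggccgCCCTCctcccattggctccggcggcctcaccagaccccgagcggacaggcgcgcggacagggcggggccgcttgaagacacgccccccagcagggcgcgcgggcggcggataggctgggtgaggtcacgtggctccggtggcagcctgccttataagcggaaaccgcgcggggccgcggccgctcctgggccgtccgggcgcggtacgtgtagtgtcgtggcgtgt
Mnx1, chr5:29478471-29478720, minus strand: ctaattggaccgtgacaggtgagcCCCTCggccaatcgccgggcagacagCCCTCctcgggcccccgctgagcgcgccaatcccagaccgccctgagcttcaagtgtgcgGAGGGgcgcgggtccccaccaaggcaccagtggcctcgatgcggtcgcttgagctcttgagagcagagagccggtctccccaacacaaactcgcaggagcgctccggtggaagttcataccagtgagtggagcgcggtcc
The Lmbr1 stretch held no CCCTC, the Insig1 stretch held 1 and the Mnx1 stretch held 3. In the 250 bases before the start, CCCTC was present in 7 of the 11 matched partners and in 60.5% of 32,851 promoter entries of that length. These matches describe letters only.

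All contacts below are distance-normalised: each deposited value was set relative to the average pair of equally distant bins of that map, zeros included, so that 1 is the average. Intervals are 95% intervals from the number of contacts behind a value and cover counting error only; with 1 library per genotype the spread between embryos is unknown. "Beyond counting error" means that the interval of a log2 ratio excluded 0. Just outside the rule, at 15 kb, the site's mean contact was 0.89 for wild type, 0.74 for intraTAD2, 0.859 for intraTAD3, 0.801 for i4CTCF, 0.803 for 2xBorCTCF and 0.768 for 1xBorCTCF. Just inside it, at 20 kb, the values in the same order were 0.917, 0.82, 0.889, 0.877, 0.766 and 0.746.

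Contact of the site with Shh was highest in the BorCTCF maps. It was 1.10 for wild type (interval 0.987 to 1.21, 457 contacts), 1.3 for intraTAD2 (1.22 to 1.38, 1295 contacts), 0.996 for intraTAD3 (0.917 to 1.08, 680 contacts), 1.10 for i4CTCF (0.971 to 1.23, 331 contacts), 2.27 for 2xBorCTCF (2.07 to 2.46, 610 contacts) and 1.95 for 1xBorCTCF (1.84 to 2.07, 1401 contacts). The intervals of both BorCTCF maps lay above those of the other 4 maps. Of these, intraTAD2 was above the average for that distance, while the intervals of wild type, intraTAD3 and i4CTCF included it. Against wild type the log2 ratio was 1.05 for 2xBorCTCF (0.86 to 1.24, 2.07-fold) and 0.83 for 1xBorCTCF (0.66 to 1.00, 1.78-fold). Against intraTAD2, whose name both genotypes carry, it was 0.81 for 2xBorCTCF (0.65 to 0.96) and 0.59 for 1xBorCTCF (0.47 to 0.71). The comparisons share these control maps. The BorCTCF libraries are also the only ones made by tetraploid aggregation, and the part of the allele in these ratios cannot be told apart from that of the embryos' origin.

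Among the other maps, intraTAD2 stood slightly above wild type (log2 ratio 0.24, 0.071 to 0.41), a call that did not hold for the centre bin alone (0.25, -0.044 to 0.55). The ratio to wild type was -0.14 for intraTAD3 (-0.32 to 0.047) and 0.0055 for i4CTCF (-0.22 to 0.23), within counting error. Relative to intraTAD2, contact with Shh was lower in intraTAD3 (-0.38, -0.53 to -0.23) and in i4CTCF (-0.24, -0.43 to -0.044), the latter again not for the centre bin alone (-0.082, -0.38 to 0.21). Between the BorCTCF maps 2xBorCTCF was higher by 0.22 (0.066 to 0.36) in balanced values, but lower in unbalanced contacts (-0.35, -0.48 to -0.21), so no order between them is given. Balancing also mattered for the size of other ratios: in unbalanced contacts the ratio to wild type was 0.55 for intraTAD2 and 1.35 for 1xBorCTCF, and that of 2xBorCTCF to intraTAD2 was 0.46.

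The higher contact with Shh was centred on the middle of the site. As the site was selected on contact values of these same maps, this position and the ranks below are a description only. The centre bin alone had a contact with Shh of 1.15 for wild type, 1.37 for intraTAD2, 1.07 for intraTAD3, 1.3 for i4CTCF, 3.26 for 2xBorCTCF (2.80 to 3.71) and 2.62 for 1xBorCTCF (2.40 to 2.83). In 2xBorCTCF its neighbours were lower on both sides, with 2.00 and 2.25 at 10 and 5 kb on the Shh side and 2.00 and 1.83 at 5 and 10 kb on the Lmbr1 side. In 1xBorCTCF the same neighbours had 1.66, 2.23, 1.93 and 1.33. Of 40 bins within 100 kb either way, the centre bin ranked 1 in both of these maps, where the 35 bins outside the site had medians of 1.08 (highest 1.66) and 1.02 (highest 1.38). Its rank was 4 for wild type, 2 for intraTAD2, 15 for intraTAD3 and 5 for i4CTCF, with medians of 0.962 to 1.03 outside the site. Without the centre bin, the log2 ratio of the 4 neighbours to wild type was 0.90 for 2xBorCTCF (0.67 to 1.13) and 0.72 for 1xBorCTCF (0.52 to 0.92). The adjoining windows of 25 kb also had more contact with Shh than in wild type in 2xBorCTCF, by 0.69 on the Shh side and 0.46 on the other, and by 0.52 and 0.25 for 1xBorCTCF. This was not particular to the BorCTCF maps, as i4CTCF was also higher on the Lmbr1 side, by 0.25 (0.011 to 0.50). The window 50 kb away on that side was above wild type in intraTAD2 (0.24), intraTAD3 (0.21), 2xBorCTCF (0.26) and 1xBorCTCF (0.24). For i4CTCF it was within counting error (0.17).

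**Figure D1:**
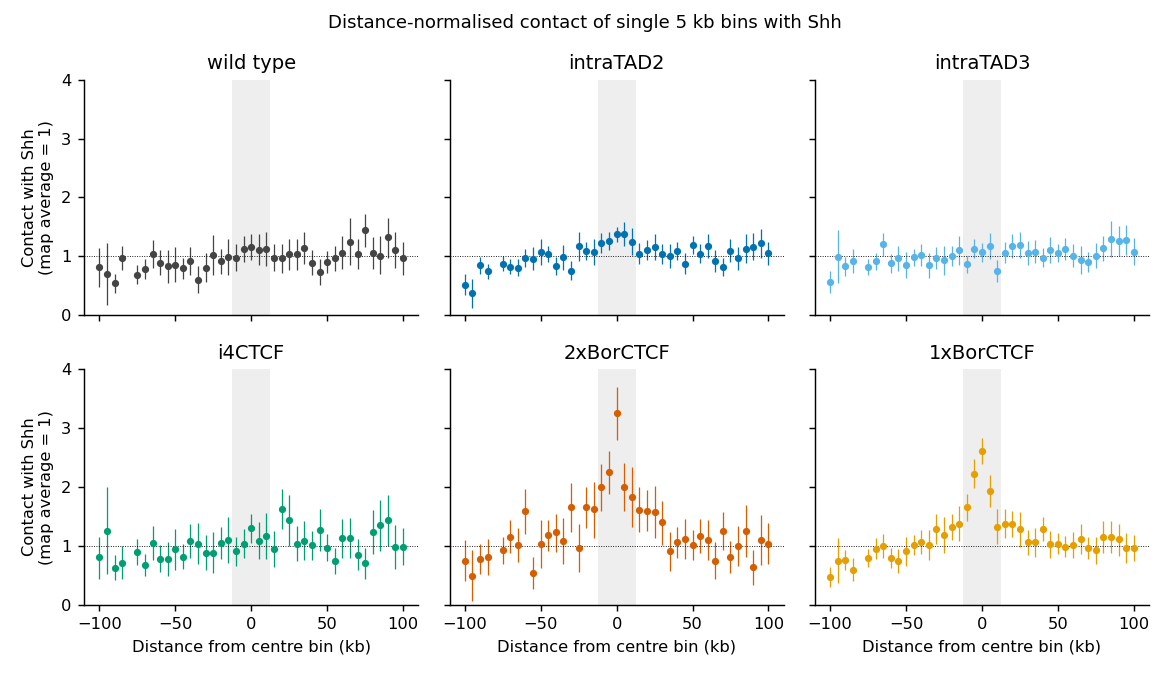
Distance-normalised contact with Shh (vertical axis, map average 1) of single 5 kb bins by their distance from the centre bin of the site in kb (horizontal axis), 1 panel per map; bars are 95% counting intervals and the grey band marks the site. In 2xBorCTCF and 1xBorCTCF the centre bin is the highest of 40 bins, at 3.26 and 2.62; the site was selected on these same maps.

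Seen from the site, the bin with the highest value near Shh is given for each map, but counting error leaves its exact position open. Of 18 bins from 28,415,001 to 28,510,000, the highest was 28,455,001 for 2xBorCTCF (2.88) and 28,450,001 for 1xBorCTCF (2.24), the former covering part of Shh and the latter the bin next to it towards the border. It was 28,460,001 for intraTAD2 (1.5), 28,440,001 for i4CTCF (1.72), 28,445,001 for wild type (1.3) and 28,480,001 for intraTAD3 (1.39). The wild-type and i4CTCF values rested on 15 and 16 contacts (0.62 to 1.98 and 0.804 to 2.64). In 2xBorCTCF the interval of the highest bin (2.33 to 3.43) overlapped that of the bin at 28,450,001 (2.69, 2.25 to 3.13). The window of 25 kb beside Shh that holds the border bin (28,425,001 to 28,450,000, singled out after its values were seen) had a contact with the site of 1.01 for wild type, 0.928 for intraTAD2, 1.01 for intraTAD3, 1.39 for i4CTCF, 1.68 for 2xBorCTCF and 1.53 for 1xBorCTCF. Against intraTAD2 the 3 genotypes whose names end in CTCF were all higher there, by 0.59 for i4CTCF (0.19 to 0.98), 0.86 for 2xBorCTCF (0.50 to 1.22) and 0.72 for 1xBorCTCF (0.41 to 1.03). For the centre bin alone the i4CTCF ratio was -0.062 (-0.76 to 0.64) on 28 contacts, while those of 2xBorCTCF and 1xBorCTCF were 1.04 and 1.05. The insulation of the border bin, the log2 mean contact across it within 100 kb, was -1.07 for wild type and intraTAD2, -1.03 for intraTAD3, -1.0 for i4CTCF, -0.97 for 1xBorCTCF and -0.79 for 2xBorCTCF.

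Lmbr1, the host gene of the ZRS, had the highest contact of the 13 genes in 5 maps and came after Shh in 2xBorCTCF. Its contact was 1.70 for wild type (1.61 to 1.79), 1.96 for intraTAD2 (1.90 to 2.03), 1.79 for intraTAD3 (1.71 to 1.86), 1.82 for i4CTCF (1.71 to 1.94), 2.02 for 2xBorCTCF (1.90 to 2.14) and 2.11 for 1xBorCTCF (2.03 to 2.2). The spread over maps was narrower than for Shh, with log2 ratios to wild type of 0.21 for intraTAD2 (0.12 to 0.30), 0.25 for 2xBorCTCF (0.14 to 0.37) and 0.32 for 1xBorCTCF (0.22 to 0.41). Those of 0.078 for intraTAD3 and 0.10 for i4CTCF were within counting error. The window with the highest contact at 50 kb or more lay at 29,275,001 to 29,300,000 inside Lmbr1 in every map, from 2.25 for wild type and intraTAD3 to 2.77 for 2xBorCTCF. The windows ranked 2 and 3 also lay in Lmbr1, in intraTAD3 partly in Rnf32 too (29,225,001 to 29,250,000, 1.85), except that in 2xBorCTCF the Shh window ranked 3 with 2.27.

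A stretch of Lmbr1 from 29,305,001 to 29,320,000 was nearly without contacts in intraTAD3, where the site's pairs with it held 9 contacts and no value was formed. Its contact with the site was 1.93 for wild type, 2.01 for intraTAD2, 1.77 for i4CTCF, 1.86 for 2xBorCTCF and 2.63 for 1xBorCTCF. The last was above wild type (0.45, 0.15 to 0.74) and above 2xBorCTCF (2xBorCTCF to 1xBorCTCF -0.50, -0.87 to -0.13); the other ratios to wild type were within counting error. Rnf32, which encodes a RING finger protein and whose window shares bins with that of Lmbr1, had contacts of 1.51 for wild type, 1.79 for intraTAD2, 1.61 for intraTAD3, 1.43 for i4CTCF, 1.67 for 2xBorCTCF and 1.64 for 1xBorCTCF. Of these, the intraTAD2 value was above wild type (0.24, 0.11 to 0.38), and i4CTCF (-0.32, -0.49 to -0.16), intraTAD3 (-0.15, -0.26 to -0.032) and 1xBorCTCF (-0.12, -0.25 to -0.0015) were below intraTAD2. Without the centre bin the last 2 of these calls were lost, and that of 1xBorCTCF also under 3 other alternatives.

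**Figure D2:**
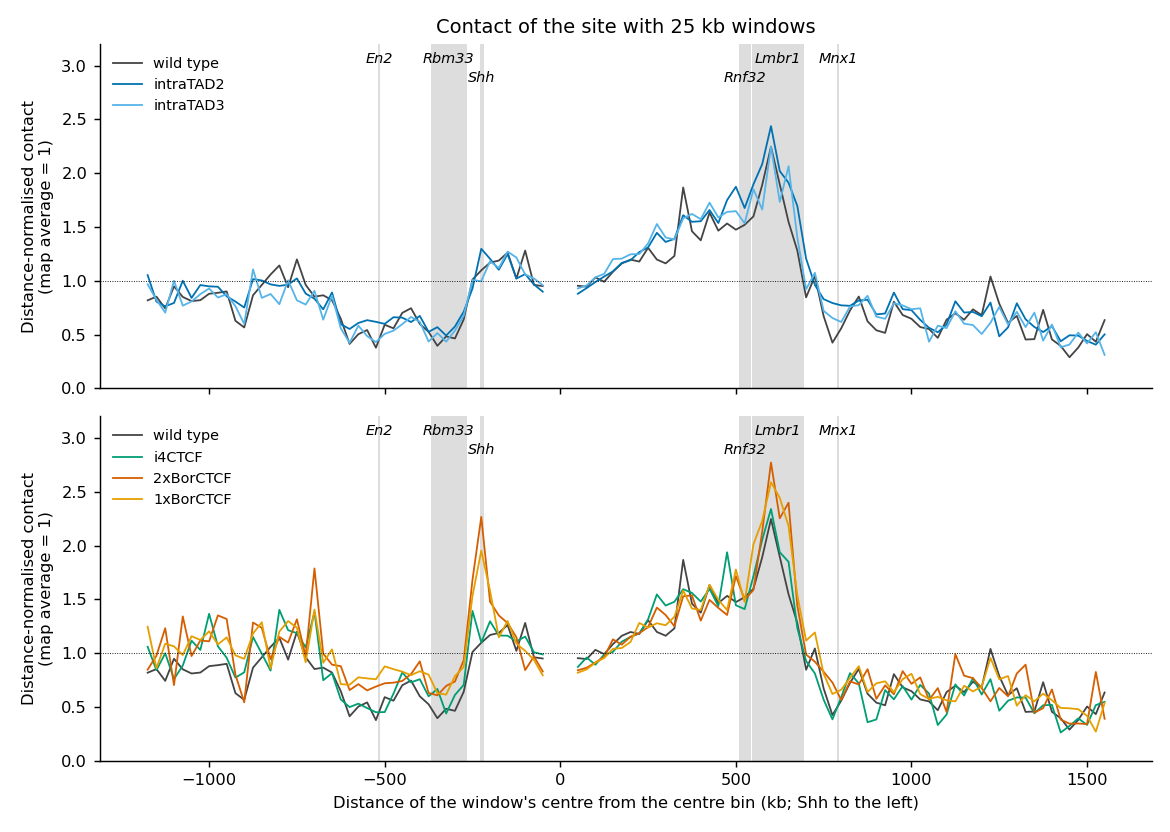
Distance-normalised contact of the site (vertical axis, map average 1) with windows of 25 kb by their distance from the centre bin in kb (horizontal axis); lines are maps, wild type is in both panels, and grey bands mark named genes. All maps peak inside Lmbr1 (2.25 to 2.77), and 2xBorCTCF and 1xBorCTCF have a second peak at Shh (2.27 and 1.95).

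Within the desert the BorCTCF maps had less contact near the site than wild type and more at Shh, and intraTAD2 was also lower in some near steps. Every bin has the same balanced total, so its higher and lower values are not independent. In steps of 50 kb, the site's contact with 28,610,001 to 28,660,000 on the Shh side was 0.951 for wild type, 0.916 for intraTAD2, 0.981 for intraTAD3, 0.991 for i4CTCF, 0.856 for 2xBorCTCF and 0.853 for 1xBorCTCF. On the other side, with 28,715,001 to 28,765,000, it was 0.926, 0.882, 0.934, 0.894, 0.829 and 0.813 in the same order. In these nearest steps 2xBorCTCF was below wild type by a log2 ratio of -0.15 and -0.16 and 1xBorCTCF by -0.16 and -0.19, all beyond counting error. For intraTAD2 the ratio was -0.055 on the Shh side (-0.13 to 0.017) and -0.071 on the other (-0.13 to -0.0075). In the next step on the Shh side, from 28,560,001 to 28,610,000, it was -0.19 for intraTAD2, -0.34 for 2xBorCTCF and -0.18 for 1xBorCTCF, all beyond counting error. The step from 28,460,001 to 28,510,000, which holds part of the Shh window, was higher by 0.41 and 0.42. Over the 12 steps on the other side, which run from the site into Lmbr1, the ratios to wild type had medians of -0.0014 for 2xBorCTCF, -0.0059 for 1xBorCTCF, 0.015 for i4CTCF, 0.073 for intraTAD3 and 0.081 for intraTAD2. The step from 28,965,001 to 29,015,000 was above wild type in intraTAD2 (0.25), intraTAD3 (0.31), i4CTCF (0.38) and 2xBorCTCF (0.21), with 1.17 for wild type itself. The stretch from 28,865,001 to 28,890,000, a site examined in the intraTAD3 map, had contacts with the present site of 1.19 for wild type and intraTAD2, 1.25 for intraTAD3, 1.14 for i4CTCF, 1.16 for 2xBorCTCF and 1.09 for 1xBorCTCF, with every ratio to wild type within counting error.

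Across the Shh-side border, Rbm33, which encodes an RNA-binding protein, was a weak partner in every map. Its contact was 0.506 for wild type (0.467 to 0.545), 0.577 for intraTAD2 (0.547 to 0.606), 0.523 for intraTAD3 (0.491 to 0.554), 0.604 for i4CTCF (0.551 to 0.656), 0.718 for 2xBorCTCF (0.662 to 0.774) and 0.744 for 1xBorCTCF (0.702 to 0.786). The BorCTCF intervals lay above all others and overlapped each other. Log2 ratios to wild type were 0.51 for 2xBorCTCF (0.35 to 0.66) and 0.56 for 1xBorCTCF (0.42 to 0.69), and those to intraTAD2 were 0.32 (0.18 to 0.45) and 0.37 (0.26 to 0.48). The smaller ratios of 0.19 for intraTAD2 and 0.25 for i4CTCF lost their call against the median of the other 5 maps (-0.066 and 0.066). That median was the i4CTCF map for intraTAD2 and the intraTAD2 map for i4CTCF. Both values therefore compare these maps with each other and say nothing about their ratios to wild type.

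Farther along that side, En2, a homeobox gene of the midbrain and hindbrain, had contacts of 0.318 for wild type (65 contacts), 0.609 for intraTAD2, 0.371 for intraTAD3, 0.444 for i4CTCF, 0.659 for 2xBorCTCF and 0.722 for 1xBorCTCF. It was above wild type in intraTAD2 (0.94, 0.52 to 1.35), 2xBorCTCF (1.05, 0.55 to 1.56) and 1xBorCTCF (1.18, 0.76 to 1.61). The intraTAD2 ratio fell within counting error against the median of the other maps and for the centre bin alone. Insig1, a regulator of sterol synthesis, had 0.406 for wild type (62 contacts), 0.546 for intraTAD2, 0.435 for intraTAD3, 0.616 for i4CTCF, 0.737 for 2xBorCTCF and 0.818 for 1xBorCTCF. Its ratios to wild type were 0.60 for i4CTCF (0.055 to 1.15), 0.86 for 2xBorCTCF (0.34 to 1.38) and 1.01 for 1xBorCTCF (0.56 to 1.46). Of these, only the 1xBorCTCF ratio kept its call under all 7 alternatives. Cnpy1, a neighbour of En2, was above wild type in 1xBorCTCF alone, at 0.859 against 0.637 (0.43, 0.24 to 0.63). Paxip1, which encodes a protein of the DNA damage response, had 0.662 for wild type and 0.995 for 1xBorCTCF (0.59, 0.33 to 0.84). Its ratios of 0.26 for intraTAD2, 0.33 for i4CTCF and 0.33 for 2xBorCTCF each lost their call under 3 or more of 7 alternatives. Htr5a had 0.864 to 1.08, with no ratio beyond counting error.

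Beyond Lmbr1, contacts with Mnx1, a homeobox gene of motor neurons, rested on 32 to 190 contacts. They were 0.406 for wild type, 0.713 for intraTAD2, 0.540 for intraTAD3, 0.433 for i4CTCF, 0.778 for 2xBorCTCF and 0.588 for 1xBorCTCF. Ratios to wild type were 0.81 for intraTAD2 (0.32 to 1.31), 0.94 for 2xBorCTCF (0.35 to 1.53) and 0.53 for 1xBorCTCF (0.0072 to 1.06), and none of them kept its call when the bins beside the gene were left out. Nom1, the neighbour of Mnx1 on the Lmbr1 side, was above wild type in intraTAD2 (0.853 against 0.618; 0.46, 0.16 to 0.77), and Ube3c, a ubiquitin ligase gene, likewise (0.762 against 0.652; 0.23, 0.035 to 0.42). Neither call held for the centre bin alone, and that of Ube3c was also lost against the median of the other 5 maps. In i4CTCF, Nom1, Mnx1 and Ube3c lay below intraTAD2, by -0.67 (-1.06 to -0.29), -0.72 (-1.32 to -0.12) and -0.48 (-0.71 to -0.24). Of these 3, the Ube3c call held under all 6 alternatives, that of Nom1 was lost for the centre bin alone, and that of Mnx1 was lost without the centre bin and with the bins of the gene alone. Dnajb6 had 0.440 to 0.573, with no ratio beyond counting error.

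Counted over the 13 genes, higher values prevailed in most ratios to wild type. In intraTAD2, 9 genes were higher and 0 lower beyond counting error; over all 25 kb windows of the map paired with the same genes (1373 pairs) the shares were 8.52% higher and 6.34% lower. In intraTAD3 0 genes were called in either direction, with 8.16% and 7.79% over all pairs. In i4CTCF 3 were higher and 0 lower, with 5.46% and 5.03% over all pairs. In 2xBorCTCF 7 were higher and 0 lower, with 8.01% and 7.43% over all pairs. In 1xBorCTCF 8 were higher and 0 lower, with 8.52% and 7.28% over all pairs. The median log2 ratio over the 13 genes was 0.24 for intraTAD2, 0.094 for intraTAD3, 0.091 for i4CTCF, 0.25 for 2xBorCTCF and 0.43 for 1xBorCTCF, beside -0.0065 to 0.021 over all windows paired with these genes. All of these ratios share the wild-type map, and pairs that share a window or gene are not independent.

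**Figure D3:**
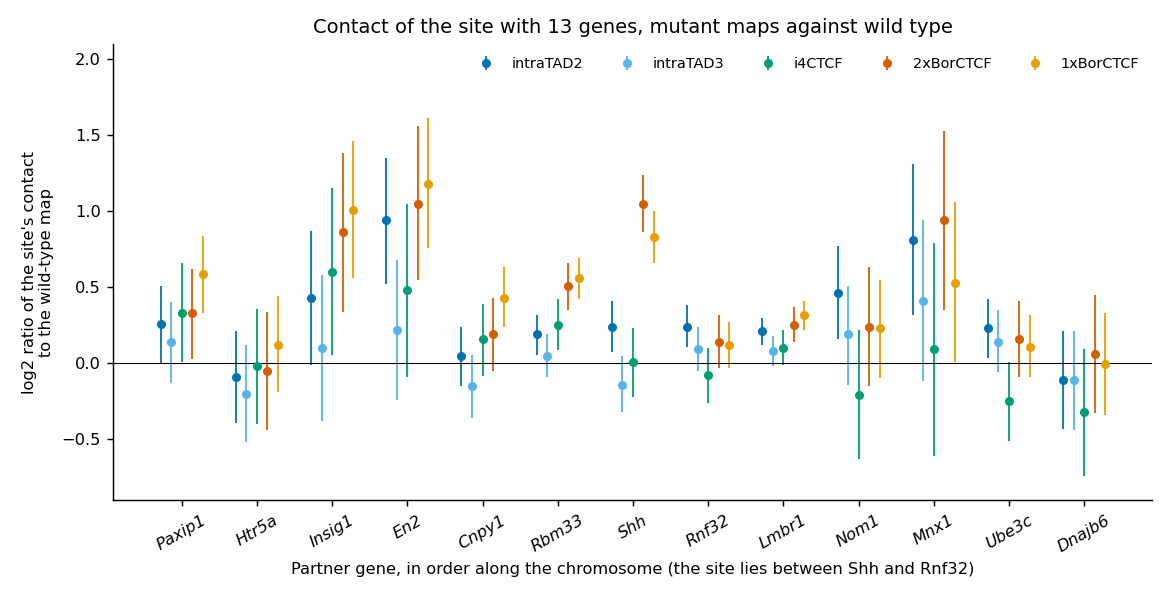
Log2 ratio of the site's distance-normalised contact in each mutant map to wild type (vertical axis) for 13 genes in chromosomal order (horizontal axis); points are ratios and bars 95% counting intervals. At Shh the 2xBorCTCF (1.05) and 1xBorCTCF (0.83) ratios stand apart from the other 3 maps (-0.14 to 0.24).

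Over the whole map, 107 windows of 25 kb were paired with the site, and each was set beside all window pairs of the same 2 maps with a ratio past 1.5-fold. Against wild type, 15 of the 107 were higher and 3 lower in 2xBorCTCF, where all pairs gave 9% and 8.31%. In 1xBorCTCF 14 were higher and 1 lower, with 6.49% and 4.89% of all pairs. In intraTAD2 3 were higher and 1 lower (4.86% and 4.42% of all pairs), in intraTAD3 2 and 3 (5.1% and 4.9%) and in i4CTCF 3 and 4 (5.9% and 7.32%). Thus 14% and 13.1% of the site's windows were higher in the BorCTCF maps, and 1.87% to 2.8% in the other mutants. Against intraTAD2, 6 were higher and 0 lower in 2xBorCTCF (6% and 6.49% of all pairs), 5 and 2 for 1xBorCTCF (4.21% and 3.77%), and 2 and 7 for i4CTCF (4.47% and 6.27%). As shares of the 107 these are 5.61% and 0%, 4.67% and 1.87%, and 1.87% and 6.54%, none of them far above that of all pairs. At 2-fold instead of 1.5-fold, 2 windows were higher than wild type in 2xBorCTCF and 1 for 1xBorCTCF. The share of all pairs past 2-fold is not available, so these counts cannot be set beside it.

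The windows with the largest ratios to wild type beyond counting error were mostly distal ones with few contacts. In 2xBorCTCF the 3 largest were the window at 27,975,001, which overlaps no annotated protein-coding gene (1.07, 0.071 to 2.06), the Shh window (1.05) and the window of Il6, an interleukin gene (0.98, 0.16 to 1.79). In 1xBorCTCF they were the windows of En2 (1.00, 0.64 to 1.37), Shh (0.83) and Insig1 (0.77, 0.37 to 1.17). In intraTAD2 they were the window of Nom1 and Mnx1 (0.90, 0.49 to 1.31), that of Hadha (0.77, 0.083 to 1.46) and that of En2 (0.71, 0.35 to 1.07). The window of Nom1 and Mnx1 was also the highest in intraTAD3 (0.62, 0.18 to 1.06), and in i4CTCF it was one inside Rbm33 at 28,325,001 (0.75, 0.34 to 1.17), with one in Dpp6 at 27,675,001 (0.63, 0.21 to 1.06) also among the 3 highest. Among the lowest, the window at 29,925,001 was below wild type in intraTAD2 (-0.70) and i4CTCF (-0.76), that at 29,900,001 for intraTAD3 (-0.77) and 2xBorCTCF (-0.91), that of Selenoi in intraTAD3 (-1.03), one overlapping Ube3c in i4CTCF (-0.80), and a desert window at 28,575,001 for 2xBorCTCF (-0.60, -0.93 to -0.27). In 1xBorCTCF none of the 3 lowest was beyond counting error. Against intraTAD2, the window at 27,975,001 was the highest in i4CTCF (0.73, -0.099 to 1.56), 2xBorCTCF (1.10, 0.37 to 1.83) and 1xBorCTCF (0.75, 0.036 to 1.47), within counting error in i4CTCF. The next highest in i4CTCF were those at 28,425,001 (0.59) and 27,875,001 (0.56, 0.20 to 0.92). Its 3 lowest were all beyond counting error. They were windows overlapping Ube3c (-1.20, -1.93 to -0.47, and -0.84, -1.43 to -0.25) and that of Nom1 and Mnx1 (-1.04, -1.55 to -0.54).

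The site kept most of its contacts at 20 kb or more inside the domain. The share between the borders was 75.8% for wild type (75.3 to 76.2), 75.8% for intraTAD2 (75.5 to 76.1), 77.9% for intraTAD3 (77.5 to 78.2), 75.7% for i4CTCF (75.1 to 76.2), 72.7% for 2xBorCTCF (72.1 to 73.2) and 71% for 1xBorCTCF (70.6 to 71.4). The BorCTCF shares were the lowest and the intraTAD3 share the highest; the remaining 3 overlapped. On the En2 side the shares were 15.6%, 15.7%, 14.3%, 17%, 19% and 20% in the same order, and on the Mnx1 side 8.59%, 8.5%, 7.81%, 7.33%, 8.35% and 8.99%. The intervals are exact binomial (Clopper-Pearson) ones of the recovered contacts, placed around the balanced share. At 50 kb or more and in unbalanced contacts the BorCTCF shares were again the lowest.

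Mean contact across the centre bin of the site within 100 kb was lowest in 1xBorCTCF. Its insulation within 100 kb was 0.043 for wild type, -0.067 for intraTAD2, 0.038 for intraTAD3, -0.019 for i4CTCF, -0.072 for 2xBorCTCF and -0.20 for 1xBorCTCF, beside -1.07 to -0.79 at the Shh-side border bin. The difference from wild type was -0.25 for 1xBorCTCF (-0.30 to -0.20), -0.12 for 2xBorCTCF (-0.17 to -0.055), -0.11 for intraTAD2 (-0.16 to -0.061), -0.062 for i4CTCF (-0.12 to -0.0017) and -0.0056 for intraTAD3 (-0.053 to 0.042). Within 50 kb it was -0.31 in both intraTAD2 and 1xBorCTCF, -0.18 for 2xBorCTCF, -0.14 for i4CTCF, -0.052 for wild type and -0.031 for intraTAD3. The log2 ratio of the site's contacts to its left (the Shh side) over its right within 100 kb was 0.14 for wild type, 0.040 for intraTAD2, 0.089 for intraTAD3, 0.21 for i4CTCF, 0.037 for 2xBorCTCF and 0.12 for 1xBorCTCF. Within 200 kb, which reaches part of Shh, it was 0.24 in both BorCTCF maps, 0.16 for i4CTCF and 0.021 to 0.076 in the other 3. In unbalanced contacts the ratio within 100 kb was below 0 in all 6 maps, from -0.32 to -0.22.

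The number of contacts of the centre bin also differed between maps. The bin held 2.06 times the contacts of the median bin in wild type, 3.89 for intraTAD2, 1.97 for intraTAD3, 2.49 for i4CTCF, 2.14 for 2xBorCTCF and 3.40 for 1xBorCTCF. Relative to wild type it was 1.88-fold in intraTAD2, 1.65-fold in 1xBorCTCF (ranks 15 and 9 of 548 bins) and 1.04-fold in 2xBorCTCF (rank 192). Its neighbours at 5 and 10 kb on the Shh side lay between 0.964 and 1.08 times wild type in all mutant maps. The bin at 10 kb on the other side was lower in all of them, from 0.724 for i4CTCF to 0.905 for intraTAD3. Balancing scales every bin to the same total. Ratios at Shh in contacts without balancing are given above, and the part of these coverage differences in the ratios was not tested.

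**Figure D4:**
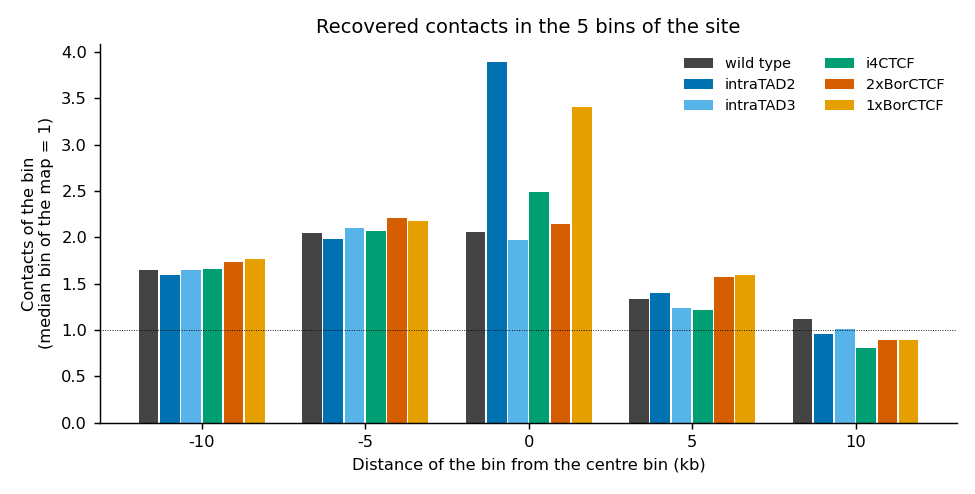
Recovered contacts of each of the 5 bins of the site as a multiple of the median bin of the same map (vertical axis), by distance from the centre bin in kb (horizontal axis); bars are maps, 1 library each. The centre bin stands out in intraTAD2 (3.89) and 1xBorCTCF (3.40), while 2xBorCTCF (2.14) is close to wild type (2.06).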

How the data were processed

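Capture Hi-C maps of the Shh region from 5 mutant libraries and a wild-type map were analysed; 1 value column (wild type) belongs to no sample. The authors deposited, for pairs of 5 kb bins, a contact signal that had been balanced; the file names give Knight-Ruiz balancing and a mapping quality of 30. Per the submitters' processing notes, Bowtie2 2.2.6, a read aligner, was used, and mm9 and mm10 are both listed as builds without a stated role. Per the labels' protocols, DNA was cut with DpnII. How contacts were called and duplicates removed is not stated in the sources used here.

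Whole contacts were recovered from the values (100% whole within 0.01; 6 pairs of intraTAD3 were not recovered). In each map, bins that had fewer than 25% of the median bin's partners were dropped. Window means were compared as log2 ratios with weighted Poisson 95% intervals. Simulated counts on which these were tried came from the same Poisson model, so they cannot show spread between libraries. Python 3.11.15, numpy 2.4.6 and scipy 1.17.1 were used.

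The site, partner genes and windows were chosen with earlier results of these data known. Genes with values are Shh, Lmbr1, Rnf32, Rbm33 and any other whose interval excluded 0; of the windows, the 3 highest per map and the 3 largest ratios each way. Alternatives were unbalanced contacts, other expectations, filters, window sizes, bins and comparison maps.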

Additional observations from a re-analysis of the deposited data

How the results depend on the processing

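With 1 library per genotype, leaving out a replicate was not possible. No paired analysis was possible because no genotype has a second library. Of 130 gene ratios, 52 were called beyond counting error. Shares over all windows paired with these genes are given above for the ratios to wild type. For the other comparisons no such share is available. Of the 52 calls, 23 were kept under every alternative run and 29 were lost under 1 or more. Of these 29, 1 (Shh, 2xBorCTCF to 1xBorCTCF) also turned beyond counting error in the other direction under another. All values here are log2 ratios unless said otherwise, and the cause of a change was not tested. The higher contact of the site with Shh in 2xBorCTCF and 1xBorCTCF than in wild type and intraTAD2 kept its direction and call under all alternatives.

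In unbalanced contacts the Shh ratio to wild type was 0.55 for intraTAD2 and 1.35 for 1xBorCTCF. That to intraTAD2 was -0.48 for i4CTCF, 0.46 for 2xBorCTCF, 0.80 for 1xBorCTCF and -0.77 for intraTAD3, and the ratio of 2xBorCTCF to 1xBorCTCF turned to -0.35. For the centre bin alone it was 1.5 (2xBorCTCF) and 1.18 (1xBorCTCF) to wild type, and 1.25 and 0.93 to intraTAD2. Against the median of the other 5 maps in place of wild type it was -0.38 for intraTAD3 and -0.24 for i4CTCF. For both, that median was the intraTAD2 map, so these are the ratios to intraTAD2 given above and no separate result. Rbm33 and Paxip1 in intraTAD2 changed sign against the median, to -0.066 and -0.069, both within counting error. There the median was the i4CTCF map for Rbm33 and the 2xBorCTCF map for Paxip1.

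The share of contacts inside the domain at 50 kb or more was 70.6% for wild type, 71.1% for intraTAD2, 72.8% for intraTAD3, 70.4% for i4CTCF, 67.6% for 2xBorCTCF and 66.1% for 1xBorCTCF. Unbalanced, the shares were 78.3%, 77.5%, 80.2%, 77.1%, 75.1% and 72.9% in that order. Insulation at the centre bin minus wild type was -0.26 for intraTAD2 with windows of 50 kb. Unbalanced it was -0.27 for intraTAD2, -0.092 for intraTAD3, -0.20 for i4CTCF and -0.30 for 1xBorCTCF. The left over right ratio was 0.038 for wild type with windows of 50 kb, and unbalanced it was -0.28 for wild type, -0.32 for intraTAD2, -0.29 for intraTAD3, -0.22 for i4CTCF, -0.31 for 2xBorCTCF and -0.24 for 1xBorCTCF. Relative to the 20 bins around the site, the centre bin's coverage ratio to wild type was 1.02 for intraTAD2, 0.46 for i4CTCF, -0.019 for 2xBorCTCF and 0.77 for 1xBorCTCF.

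At 2-fold, windows higher and lower than wild type numbered 0 and 0 for intraTAD2, 0 and 1 for intraTAD3, 0 and 0 for i4CTCF, 2 and 0 for 2xBorCTCF, and 1 and 0 for 1xBorCTCF. Against intraTAD2, 0 were higher and 2 lower for i4CTCF, 2 higher for 2xBorCTCF, and 0 and 0 for 1xBorCTCF. With shifted windows, 6 were higher and 2 lower than wild type for intraTAD2, 1 lower for intraTAD3 and 0 lower for 1xBorCTCF. Against intraTAD2 there were then 0 higher for i4CTCF, 1 lower for 2xBorCTCF and 0 lower for 1xBorCTCF. Without the centre bin, 5 were higher and 2 lower than wild type for intraTAD2, 3 lower for 1xBorCTCF, and 4 were lower than intraTAD2 for 2xBorCTCF. Shares over all pairs are not available for the settings of this paragraph. Its counts therefore show only how the site's calls changed with the setting, and cannot be compared with the rest of the map.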

Other observations

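Contacts under 20 kb were outside the members described above. The centre bin's contacts with itself, which join DNA within the same 5 kb, numbered 798 for wild type, 3821 for intraTAD2, 1273 for intraTAD3, 1269 for i4CTCF, 793 for 2xBorCTCF and 2537 for 1xBorCTCF. As a share of the bin's contacts this was 7.18%, 9.96%, 6.93%, 12.5%, 10.1% and 11.3% in the same order. All contacts under 20 kb made up 28.3% to 31.2% of the centre bin's contacts in 5 maps and 35.7% in i4CTCF, where the 4 neighbours were also high, at 35.1% to 40.1% against 28% to 35.9% in the other maps.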
